A study of Mus musculus with 12 samples.

Results

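LY6D+ cells were compared with LY6D- cells inside the Sca1-high gate of the mouse prostate. The members were the 4 libraries labelled Sca1-high, of 12 in the series, and comprised a LY6D+ and a LY6D- library from mouse 1 and a second such pair from mouse 5, so that n = 2 in each group. All donors were wild-type, hormone-naïve male mice, whose age and strain are not given in the sources used here. Cells were sorted as negative for CD45, CD31 and Ter119, high for Sca1 and positive for CD49f, and were then divided by LY6D. Luminal cells (Sca1-low, CD49f-low, mice 4 and 5) and basal cells (Sca1-intermediate, CD49f-positive, mice 3 and 5) were divided in the same way, with a LY6D+ and a LY6D- library from each mouse. They served here for the spread between arrays and for contrast. Total RNA was amplified and hybridized to arrays, so that each library is a bulk sample, and values are log2 signals, on which a difference of 1 is a 2-fold difference.

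LY6D is a small surface protein of the LY6/uPAR family, held on the membrane by a lipid anchor. In the prostate it has been used to mark luminal cells with progenitor properties that persist after castration. Sca1, the product of Ly6a, is another member of the family and marks progenitor-rich epithelium of the proximal ducts, and it is also found on endothelial cells and on many stromal cells. CD49f is integrin alpha 6, which anchors basal epithelial cells to laminin and is also present on endothelium. Prostate ducts hold a basal layer with keratins 5 and 14 and a luminal layer with keratins 8 and 18 that secretes into the lumen.

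The transcript of the sorted protein did not follow the labels in both mice. Ly6d was 5.54 in the LY6D+ and 4.96 in the LY6D- library of mouse 1, and in mouse 5 it was 4.70 where the label reads LY6D+ and 7.37 where it reads LY6D-. The LY6D- library of mouse 5 thus held the highest Ly6d value of the 4, and the mouse 5 pair went against its labels. The group difference was -1.05 ± 0.70 (LY6D+ minus LY6D-, log2 ± SE, adjusted p = 1.00, limma), and it became 0.16 without the LY6D- library of mouse 5. Whether the labels of these 2 libraries were exchanged was not tested. An exchange would turn the sign of every mouse 5 difference, so that genes given below with opposite signs would share a sign, and genes given with a shared sign, such as Spinkl, Serp1 and Gap43, would have opposite signs. The mouse 5 libraries are therefore named by their labels below, and every result is given for each mouse. No annotated probe set was for Ly6a, which was not analysed here.

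The other genes behind the gate also differed between the pairs. Itga6, which encodes CD49f, was 6.07 and 7.03 in the LY6D+ and LY6D- libraries of mouse 1 and 7.93 and 6.91 in those of mouse 5. Ptprc, which encodes CD45, lay between 3.86 and 4.53 in the 4 libraries. Pecam1, which encodes CD31, was 6.84 and 9.58 in mouse 1 and 9.16 and 8.14 in mouse 5 (LY6D+ first). The CD31-negative gate thus gave libraries with Pecam1 signals that spanned 2.73 log2 units within mouse 1. The group differences of these 3 genes turned sign when single Sca1-high libraries were left out.

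Epithelial adhesion genes gave high signals in all 4 libraries (the median of the table was 3.90, which is no detection limit). Epcam, an epithelial adhesion protein, was 9.16 and 9.47 in mouse 1 and 7.81 and 10.07 in mouse 5 (LY6D+ first), and Cdh1, E-cadherin, was 10.57 and 10.08 in mouse 1 and 8.61 and 11.12 in mouse 5. The luminal keratin gene Krt18 was 10.49 and 10.02 in mouse 1 and 5.30 and 10.45 in mouse 5, and its partner Krt8 was 9.74 and 8.45 in mouse 1 and 6.48 and 8.95 in mouse 5. The LY6D+ library of mouse 5 was the lowest of the 4 for all 4 of these genes. Trp63, the basal transcription factor p63, varied little, from 4.68 to 5.22. Among markers of other cells, Col1a1 (fibroblasts) lay between 5.41 and 5.76, Pdgfra (fibroblasts) between 3.44 and 4.09, Acta2 (smooth muscle) between 5.20 and 5.91 and Myh11 (smooth muscle) between 5.07 and 5.25. Krt5 had no probe set of a single gene, and Hbb-bs was not tested.

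No gene of 20135 passed the test between the LY6D+ and LY6D- groups (limma, Benjamini-Hochberg adjusted p under 0.05). The smallest adjusted p was 0.916, and 486 genes (2.41%) had an unadjusted p under 0.05. With each pair tested against the spread of the 8 luminal and basal libraries, 0 genes passed in mouse 1 (588 genes, 2.92%, at an unadjusted p under 0.05). In mouse 5, 1 gene passed (0.00497%), and 884 genes (4.39%) had an unadjusted p under 0.05. In the difference between the pairs 0 genes passed (832 genes, 4.13%, at an unadjusted p under 0.05). In these pair tests a lone library is assumed to vary like the libraries of the other gates. Leaving out a LY6D+ library leaves 1 in that group, which is then set against the LY6D- libraries of both mice. Such a fit cannot show whether a difference holds in both mice, and no conclusion is drawn from its calls.

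The pairs did not rank genes alike. Across genes, the LY6D difference of mouse 1 and that of mouse 5 had a Pearson r of -0.101 and a Spearman rho of -0.0619, and 9635 of 20135 genes (47.9%) had the same sign in both. The differences had an SD of 0.670 in mouse 1 and 0.715 in mouse 5. The 2 luminal pairs correlated at -0.0779 and the 2 basal pairs at 0.0863, so the differences of different mice were weakly related in every gate. Genes are not independent replicates, and these values are descriptions. Differences of at least 1 in both pairs were less frequent in the same direction (58 genes, 0.288%, higher and 122 genes, 0.606%, lower in LY6D+) than in opposite directions. There were 211 genes (1.05%) higher by at least 1 in LY6D+ cells of mouse 1 and lower by at least 1 in mouse 5, and 135 genes (0.67%) with the reverse.

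**Figure D1:**
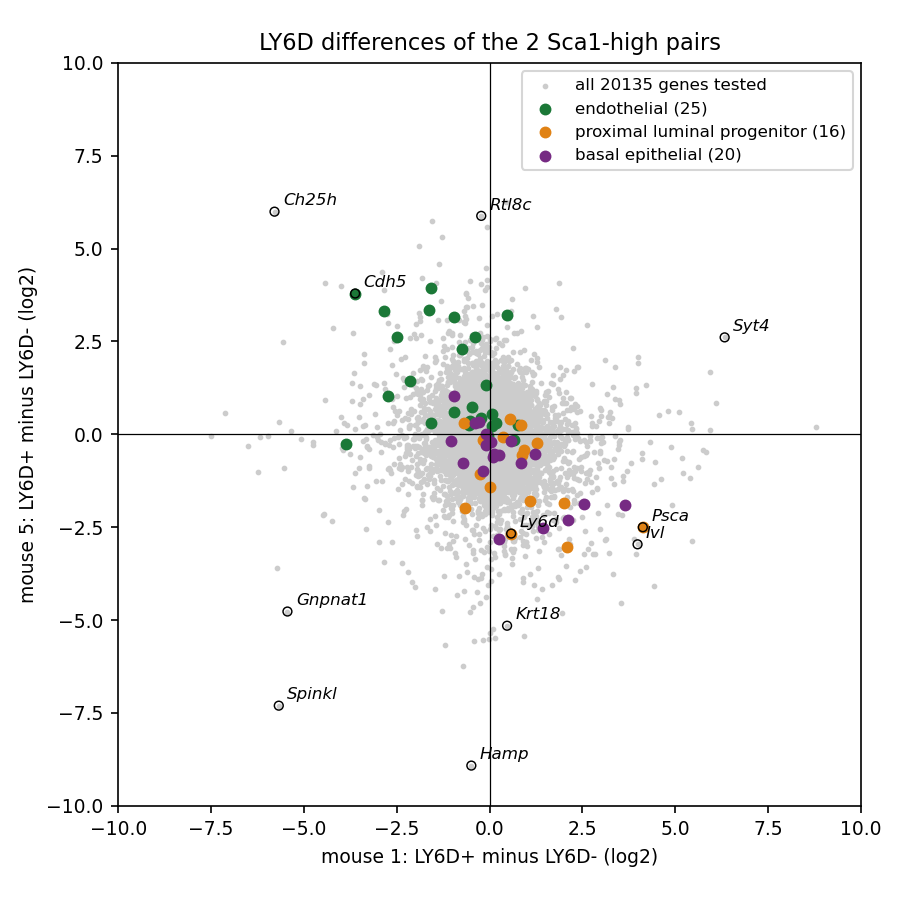
LY6D+ minus LY6D- difference (log2) of each tested gene in mouse 1 (horizontal axis) and mouse 5 (vertical axis), with 3 gene lists in colour and single genes circled. Cdh5 and Ch25h sit at upper left and Psca and Ivl at lower right, where the pairs oppose, while Spinkl and Gnpnat1 at lower left and Syt4 at upper right have the same sign in both.

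As whole arrays, the LY6D+ libraries of the 2 mice correlated at 0.817 and the LY6D- libraries at 0.840. The 2 libraries of mouse 1 correlated at 0.878 and those of mouse 5 at 0.856. The LY6D+ library of mouse 1 correlated with the LY6D- library of mouse 5 at 0.865, which was above its correlation with the other LY6D+ library. The LY6D+ library of mouse 5 stood apart, with a median r of 0.807 with the other 11 arrays, the lowest of the 12.

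Most endothelial genes had opposite signs in the pairs: lower in LY6D+ cells of mouse 1 and higher in LY6D+ cells of mouse 5. Of 25 tested endothelial genes, 6 were higher in LY6D+ cells of mouse 1 and 22 in LY6D+ cells of mouse 5, where 42.6% and 49.9% of all genes were higher. Of the 25, 17 were lower in mouse 1 and higher in mouse 5, while 5976 of all genes (29.7%) had that combination. The list median was -0.55 in mouse 1 and 0.73 in mouse 5, against -0.08 and -8.6e-04 over all genes tested. The mean log2 signal of the list was 5.55 and 6.57 in the LY6D+ and LY6D- libraries of mouse 1 and 7.0 and 5.57 in those of mouse 5. In bulk samples a smaller share of endothelial cells and less RNA per cell cannot be told apart. In mouse 1, 9 members were lower by at least 1 (4.06% of all genes), and in mouse 5, 12 were higher by at least 1 (4.43% of all genes). None of the list passed the test in either pair or between the groups, but after quantile normalization over arrays the endothelial transcription factor gene Erg passed in mouse 5 (difference 3.15, adjusted p = 0.035).

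Cdh5, VE-cadherin of endothelial junctions, was 7.40 in LY6D+ and 11.02 in LY6D- cells of mouse 1, and 10.80 and 7.01 in those of mouse 5. Its difference was -3.62 ± 0.71 in mouse 1 and 3.79 ± 0.71 in mouse 5, and the pairs differed by 7.41 ± 1.01 (unadjusted p = 1.1e-04, adjusted p = 0.19). Each mouse thus gave a high and a low library, and the LY6D groups overlapped. Cd34, a sialomucin of endothelial and progenitor cells, was 5.07 and 7.92 in mouse 1 and 8.52 and 5.20 in mouse 5 (LY6D+ first), with a difference between the pairs of 6.17 ± 0.87 (adjusted p = 0.19). Flt1, a receptor for vascular endothelial growth factor, was 6.06 and 8.57 in mouse 1 and 9.57 and 6.94 in mouse 5, with a difference between the pairs of 5.13 ± 0.75 (adjusted p = 0.19). The adhesion receptor gene Adgrl4 was 7.41 and 8.996 in mouse 1 and 10.70 and 6.75 in mouse 5. For each of these genes the LY6D- library of mouse 1 and the LY6D+ library of mouse 5 held the higher values.

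Emcn, endomucin, was high in all 4 libraries, at 9.08 and 11.22 in the LY6D+ and LY6D- libraries of mouse 1 and 11.22 and 9.79 in those of mouse 5. It lay between 3.55 and 5.68 in the 4 luminal libraries. Its 300-base promoter window (250 bases before to 50 after the RefSeq start, GRCm38.p6, chr3:137340828-137341127, plus strand) is shown with that of Ivl (chr3:92573686-92573985, minus strand), a gene with the opposite signs described below, as an example from each side. Capitals mark matches, on either strand, to TATAAA (the core promoter box), GGAAGT (a form of the ETS site) and TGANTCA (AP-1). These were found in 13.6%, 23.8% and 7.81% of 32851 promoters in the RefSeq table. None of the marked matches overlapped another.

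Emcn promoter: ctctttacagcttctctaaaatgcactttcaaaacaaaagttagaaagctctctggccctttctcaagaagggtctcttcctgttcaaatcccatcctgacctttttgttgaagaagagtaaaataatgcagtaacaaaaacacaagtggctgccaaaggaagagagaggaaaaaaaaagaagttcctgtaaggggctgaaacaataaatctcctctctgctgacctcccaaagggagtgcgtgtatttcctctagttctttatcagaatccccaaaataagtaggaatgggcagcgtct
Ivl promoter: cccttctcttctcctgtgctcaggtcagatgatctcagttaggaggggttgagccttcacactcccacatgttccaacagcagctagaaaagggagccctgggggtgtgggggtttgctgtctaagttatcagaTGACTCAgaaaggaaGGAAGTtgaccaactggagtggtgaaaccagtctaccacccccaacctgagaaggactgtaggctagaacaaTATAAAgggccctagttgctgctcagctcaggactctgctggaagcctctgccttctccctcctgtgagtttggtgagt

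The Ivl window held 1 match to each of these letter strings and the Emcn window held none. The shorter GGAA, present in the Emcn window, was not among the strings searched, so the window is not shown to lack ETS sites. A match is a description of letters, and no binding was measured.

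Other genes with this pattern belonged to several classes. Ch25h, cholesterol 25-hydroxylase, was 4.05 and 9.84 in mouse 1 and 11.005 and 5.01 in mouse 5 (LY6D+ first), a difference between the pairs of 11.78 ± 1.29 (adjusted p = 0.11). S1pr1, a sphingosine 1-phosphate receptor, was 5.39 and 9.60 in mouse 1 and 7.86 and 5.00 in mouse 5. Sele, E-selectin of activated endothelium, was 5.13 and 7.10 in mouse 1 and 7.74 and 5.16 in mouse 5. Mef2c, a transcription factor of muscle and vessels, was 5.12 and 7.01 in mouse 1 and 9.29 and 4.22 in mouse 5. Stc1, a secreted glycoprotein, was 3.86 and 6.72 in mouse 1 and 6.83 and 3.58 in mouse 5. The 2 high values of each of these 5 genes again came from the LY6D- library of mouse 1 and the LY6D+ library of mouse 5. Ch25h, S1pr1 and Stc1 were, with Cdh5, Cd34, Mall, Mndal, Eloc, Spcs3 and Ppt1, the 10 most opposed in this direction. Sele and Mef2c were named for a small p in the difference between the pairs.

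**Figure D2:**
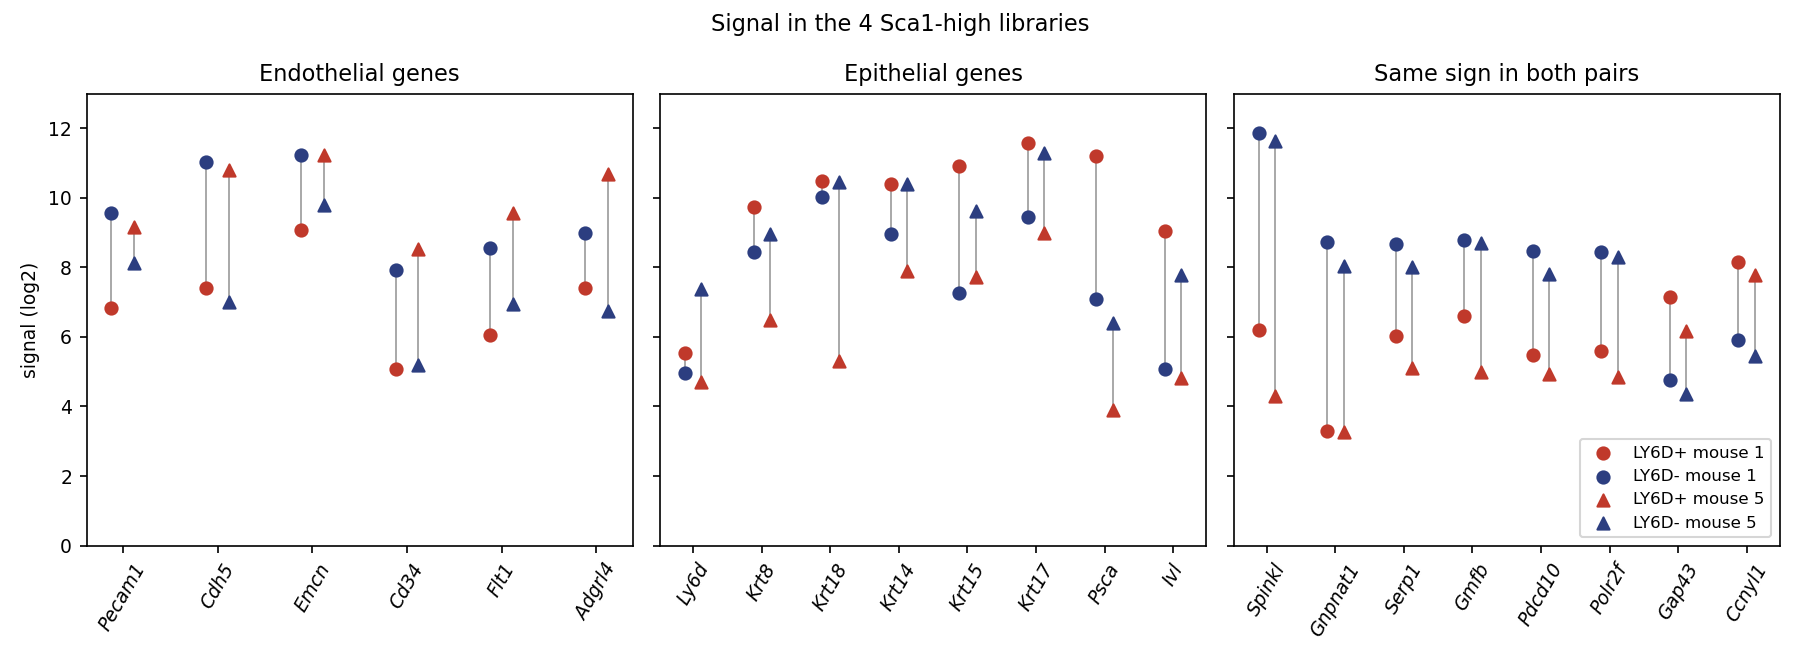
Log2 signal of 22 genes in the 4 Sca1-high libraries (red LY6D+, blue LY6D-, circles mouse 1, triangles mouse 5), with a grey line joining the libraries of a mouse. The red and blue points change places between mice for the endothelial genes and for Krt14, Krt15, Krt17, Psca and Ivl, and keep their order for the genes in the right panel.

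Most proximal-duct and basal epithelial genes had the reverse pattern. Of 16 tested proximal luminal progenitor genes, 12 were higher in LY6D+ cells of mouse 1 and 3 in LY6D+ cells of mouse 5, with medians of 0.71 and -0.81. Of these, 10 were higher in mouse 1 and lower in mouse 5, a combination held by 4518 of 20135 genes (22.4%). The list holds Ly6d itself. Of 20 basal epithelial genes, 12 were higher in mouse 1 and 4 in mouse 5, with medians of 0.10 and -0.55, and the 12 were all lower in mouse 5. None passed the test in either pair.

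Psca, a LY6-family surface protein, was 11.21 in LY6D+ and 7.08 in LY6D- cells of mouse 1, and 3.91 and 6.41 in those of mouse 5. The LY6D groups overlapped, and the pairs differed by -6.63 ± 1.68 (adjusted p = 0.54). Krt15, a basal keratin, was 10.92 and 7.27 in mouse 1 and 7.72 and 9.62 in mouse 5 (LY6D+ first), with a difference between the pairs of -5.55 ± 0.97 (adjusted p = 0.25). Krt17, a keratin of basal and stressed epithelium, was 11.57 and 9.45 in mouse 1 and 8.98 and 11.30 in mouse 5. Krt14 was 10.40 and 8.96 in mouse 1 and 7.89 and 10.41 in mouse 5. The keratins were thus highest in the LY6D+ library of mouse 1 and the LY6D- library of mouse 5, the libraries in which Cdh5 was lower. The glutathione transferase gene Gsta4 was 7.66 and 5.57 in mouse 1 and 5.70 and 8.73 in mouse 5, and Itga3, the integrin alpha 3 chain, was 8.23 and 5.70 in mouse 1 and 6.17 and 8.05 in mouse 5.

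Some genes of the epithelial barrier had this pattern, and the barrier lists as wholes were mixed. Ivl, involucrin of the cornified envelope, was 9.06 and 5.08 in mouse 1 and 4.82 and 7.78 in mouse 5 (LY6D+ first), with a difference between the pairs of -6.95 ± 1.27 (adjusted p = 0.27). Dsp, desmoplakin of desmosomes, was 7.08 and 4.65 in mouse 1 and 4.85 and 8.54 in mouse 5. Cldn1, a tight-junction claudin, was 10.45 and 8.28 in mouse 1 and 8.42 and 11.38 in mouse 5. In each case the LY6D+ library was the higher one in mouse 1 and the lower one in mouse 5. Sprr2f, a cornified envelope precursor, was 7.74 and 3.86 in mouse 1 and 3.70 and 6.53 in mouse 5. Of 31 epithelial junction genes 13 were higher in mouse 1 and lower in mouse 5, and the medians were 0.19 and -0.52. Of 23 squamous differentiation genes 8 had that combination and 8 were lower in both mice, and the medians were -0.01 and -0.42. Over all genes 22.4% had the first combination and 27.6% were lower in both.

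The remaining genes most opposed in this direction were of other functions. Rny3, a small cytoplasmic Y RNA, was 9.68 and 5.25 in mouse 1 and 4.54 and 8.64 in mouse 5 (LY6D+ first). F3, tissue factor, was 9.25 and 6.15 in mouse 1 and 6.68 and 9.52 in mouse 5. Max, the dimer partner of MYC, was 11.05 and 5.59 in mouse 1 and 7.81 and 10.68 in mouse 5. Ndufa1, a subunit of respiratory complex I, was 9.55 and 6.33 in mouse 1 and 5.11 and 8.31 in mouse 5. All of these had 1 high library per mouse, LY6D+ in mouse 1 and LY6D- in mouse 5. Polr2k, Crls1, Phyh and Blnk completed the 10 with Ivl and Sprr2f. The Krt18 difference of mouse 1 was 0.47 with the brightest probe set and -1.81 with the mean of its probe sets, so its direction there depended on that choice.

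**Figure D3:**
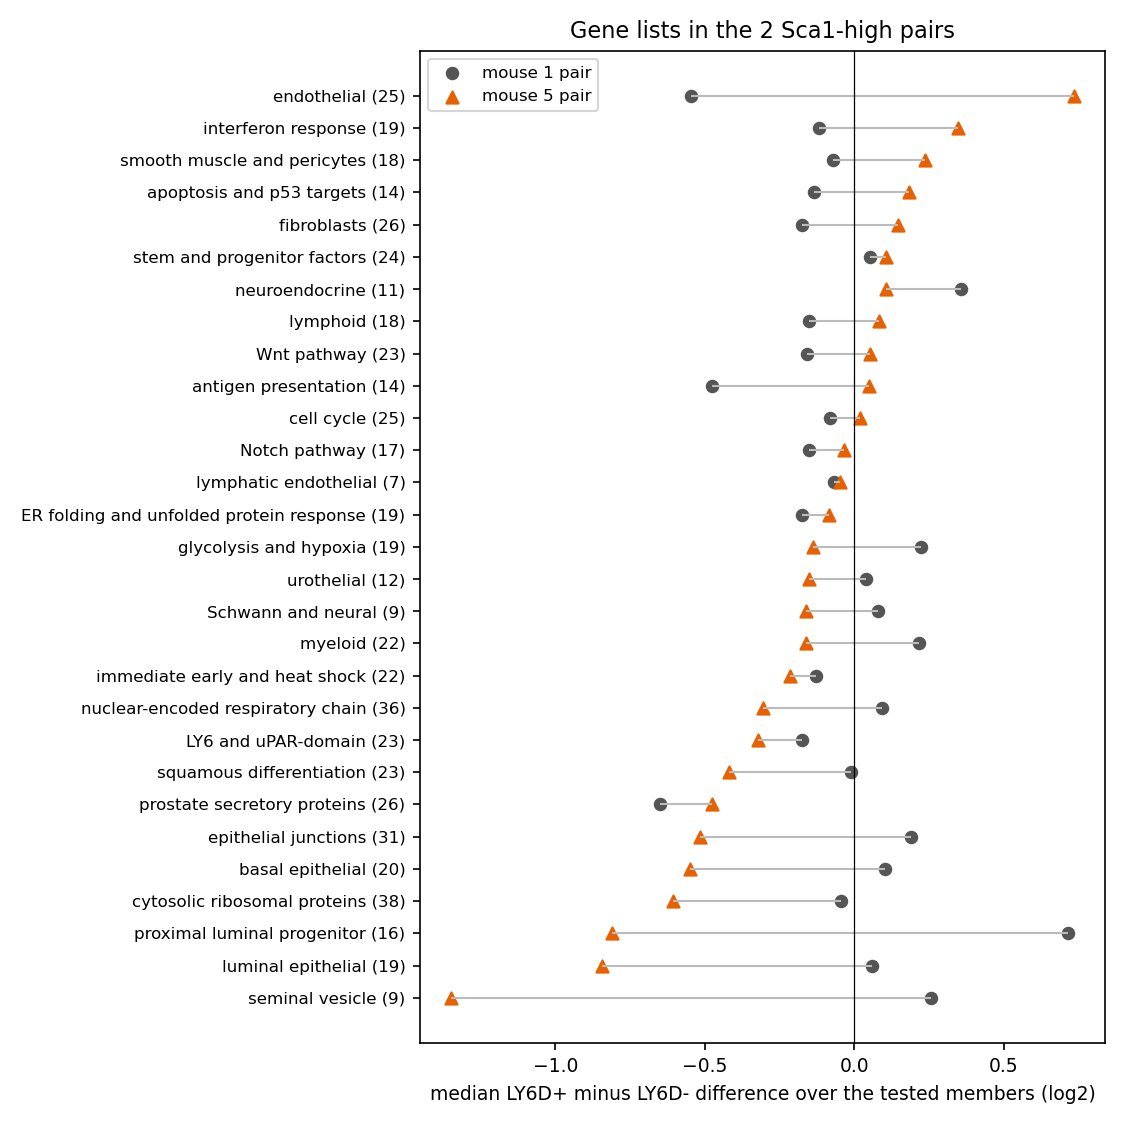
Median LY6D+ minus LY6D- difference (log2) over the tested members of each gene list (number in brackets) in the mouse 1 pair (circles) and the mouse 5 pair (triangles). The endothelial list lies at -0.55 and 0.73 and the proximal luminal progenitor list at 0.71 and -0.81, while the prostate secretory list is below 0 in both.

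Most prostate secretory genes had lower signals in LY6D+ cells of both mice. Of 26 tested members 5 were higher in LY6D+ cells of mouse 1 and 8 in mouse 5, and 14 were lower in both, a combination held by 5567 of 20135 genes (27.6%). The medians were -0.65 in mouse 1 and -0.48 in mouse 5, and no member passed the test. Mmp7, matrilysin, was 8.74 and 10.83 in mouse 1 and 5.53 and 9.52 in mouse 5 (LY6D+ first), a group difference of -3.04 ± 1.25 (adjusted p = 1.00). Fgl1, a fibrinogen-like secreted protein, was 3.95 and 7.20 in mouse 1 and 4.41 and 5.27 in mouse 5. Both genes kept their order across mice, whereas Ceacam10 did not, at 8.62 and 7.70 in mouse 1 and 3.84 and 9.26 in mouse 5.

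Genes of seminal vesicle secretions, products of a neighbouring gland, differed within both mice. Of 9 tested members 5 were higher in LY6D+ cells of mouse 1 and 0 in mouse 5, with medians of 0.26 and -1.35. Over all genes 42.6% and 49.9% were higher. In mouse 1, 4 members were higher and 2 lower by at least 1, against 3.75% and 4.06% of all genes. In mouse 5, 6 were lower by at least 1, against 5.69% of all genes. Svs6 was 8.55 and 9.74 in mouse 1 and 4.90 and 10.57 in mouse 5 (LY6D+ first), lower with LY6D in both. Sva was 8.13 in LY6D+ cells of mouse 1 and 2.54, 2.15 and 3.02 in the LY6D- library of mouse 1 and the LY6D+ and LY6D- libraries of mouse 5. Svs3b was 9.98 in the same library and between 4.17 and 5.06 in the other 3, so that both transcripts were high in a single Sca1-high library. Spinkl, a protease inhibitor of the seminal fluid, is also on this list and is described next.

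Among genes other than predicted models, Spinkl had the largest difference shared by both pairs. It was 6.19 in LY6D+ and 11.87 in LY6D- cells of mouse 1, and 4.32 and 11.62 in those of mouse 5. The groups did not overlap, and the difference was -6.49 ± 1.04 (unadjusted p = 1.3e-04, adjusted p = 0.92). Over all genes, 3462 (17.2%) lay lower in both LY6D+ libraries than in both LY6D- libraries and 2384 (11.8%) lay higher, and the gap reached at least 1 for 51 (0.253%) and 25 (0.124%) genes. With mouse as a fixed block, Spinkl had the smallest adjusted p of all genes, 0.080, and 704 genes (3.5%) had an unadjusted p under 0.05. In the luminal libraries Spinkl lay between 11.58 and 12.44, and in the basal libraries between 7.49 and 11.88. Its Sca1-high difference minus the luminal one was -6.83 ± 1.47 (unadjusted p = 0.0011, adjusted p = 1.00), and minus the basal one it was -8.17 ± 1.47 (unadjusted p = 3.1e-04, adjusted p = 0.97).

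The other genes with large shared differences in this direction had several functions. Serp1, which stabilizes membrane proteins in the endoplasmic reticulum under stress, was 6.04 and 8.67 in mouse 1 and 5.10 and 8.01 in mouse 5 (LY6D+ first), a difference of -2.77 ± 0.40. It had the smallest unadjusted p of the group comparison (6.0e-05, adjusted p = 0.92), and the other 8 libraries lay between 8.08 and 9.51, above both LY6D+ Sca1-high libraries. Gnpnat1, an enzyme of the hexosamine pathway that feeds protein glycosylation, was 3.30 and 8.74 in mouse 1 and 3.26 and 8.03 in mouse 5. The low Gnpnat1 values were not particular to these cells, since the LY6D- basal library of mouse 3 was at 3.09 and the LY6D+ luminal library of mouse 4 at 3.68. Ormdl2, a regulator of sphingolipid synthesis, was 4.29 and 10.005 in mouse 1 and 4.13 and 7.72 in mouse 5. Spcs2, a signal peptidase subunit, was 4.32 and 7.64 in mouse 1 and 2.62 and 5.17 in mouse 5. Both also moved between the LY6D- basal libraries of mice 3 and 5: Ormdl2 was 3.85 and 9.14, and Spcs2 was 2.12 and 4.85. The broader list of 19 endoplasmic reticulum folding and unfolded protein response genes had medians of -0.17 and -0.08, with 6 members (31.6%) lower in both mice against 27.6% of all genes. Spcs3, another signal peptidase subunit, had opposite signs, with differences of -2.77 in mouse 1 and 3.24 in mouse 5.

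Gmfb, glia maturation factor beta, was 6.60 and 8.79 in mouse 1 and 4.98 and 8.70 in mouse 5 (LY6D+ first), a difference of -2.95 ± 0.48 (adjusted p = 0.92). Pdcd10, a scaffold protein linked to cerebral cavernous malformation, was 5.49 and 8.46 in mouse 1 and 4.92 and 7.82 in mouse 5, a difference of -2.93 ± 0.50 (adjusted p = 0.92). Polr2f, a subunit shared by the nuclear RNA polymerases, was 5.61 and 8.45 in mouse 1 and 4.84 and 8.29 in mouse 5. For these 3 genes both LY6D- libraries lay at 7.82 or above and both LY6D+ libraries at 6.60 or below. Snord65, Dnajc8 and AW112010 were, with Spinkl, Serp1, Gnpnat1, Ormdl2, Spcs2, Pdcd10 and Polr2f, the 10 genes with the largest shared difference in this direction, and none passed the test.

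Fewer genes were higher than lower by at least 1 in both LY6D+ libraries (58 against 122). Gap43, a growth-cone protein of neurons, was 7.14 and 4.75 in mouse 1 and 6.18 and 4.36 in mouse 5 (LY6D+ first), a difference of 2.11 ± 0.35 (unadjusted p = 1.9e-04, adjusted p = 0.92). Its Sca1-high difference exceeded the basal one by 2.75 ± 0.50 (adjusted p = 0.97) and the luminal one by 1.01 ± 0.50 (unadjusted p = 0.073, adjusted p = 1.00). Gap43 was also higher in LY6D+ luminal cells of both mice, at 5.27 and 4.32 in mouse 4 and 5.47 and 4.23 in mouse 5. Both Sca1-high LY6D+ values lay above the 10 other libraries of the series, which reached 5.47. Ccnyl1, a cyclin Y relative, was 8.17 and 5.91 in mouse 1 and 7.77 and 5.45 in mouse 5, a difference of 2.29 ± 0.48 (adjusted p = 1.00). Abcb1a, an efflux pump of the P-glycoprotein class, was 7.03 and 5.75 in mouse 1 and 8.28 and 5.41 in mouse 5. The LY6D+ libraries held the 2 highest values of the 12 for both Ccnyl1 and Abcb1a. Zxda was 5.25 and 3.96 in mouse 1 and 6.29 and 4.24 in mouse 5.

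**Figure D4:**
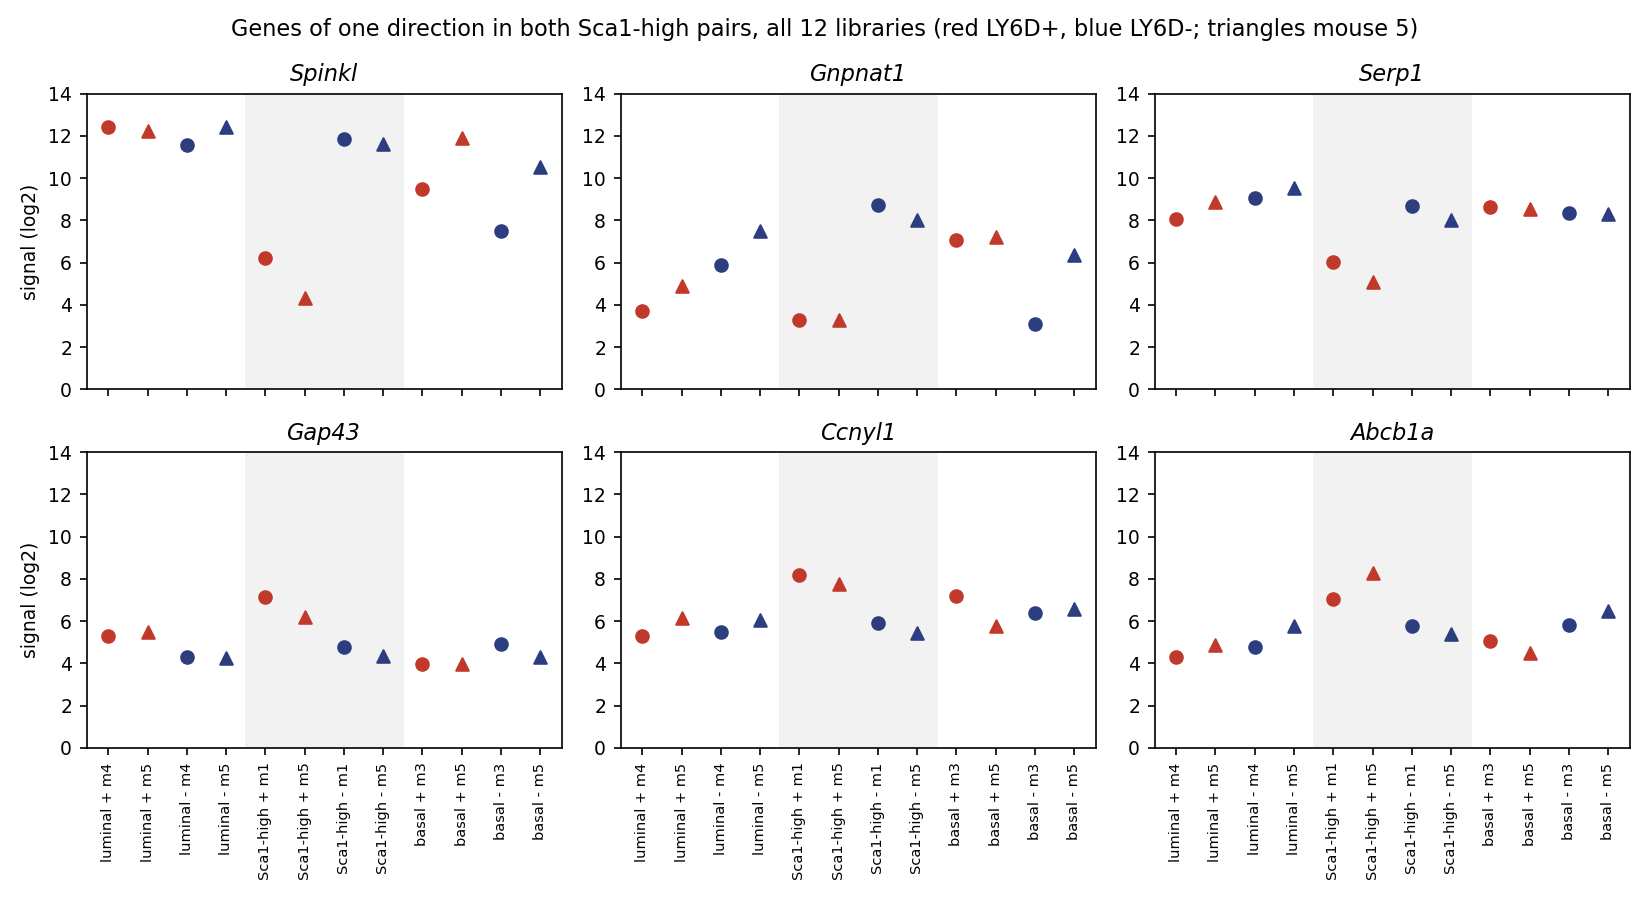
Log2 signal in all 12 libraries (red LY6D+, blue LY6D-, triangles mouse 5, shaded area Sca1-high) for 3 genes lower and 3 genes higher in both LY6D+ Sca1-high libraries. Serp1 lies at 6.04 and 5.10 in these libraries and at 8.01 or above elsewhere, and Gap43 lies at 7.14 and 6.18 against 5.47 or below elsewhere.

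Some of the shared differences rested on levels that also moved between mice. Cox20, an assembly factor of cytochrome oxidase, was 4.01 and 2.15 in mouse 1 and 10.75 and 6.67 in mouse 5 (LY6D+ first), so that both mouse 5 libraries lay above both mouse 1 libraries. Within mice the difference was 1.86 and 4.07, both above 0. The group difference was 2.97 ± 2.003 without regard to mouse and 2.97 ± 0.63 with mouse as a block (unadjusted p = 0.0027, adjusted p = 1.00). It became -0.40 without the LY6D+ library of mouse 5, a value that sets mouse 1 cells against the LY6D- cells of both mice. Zfp97 was 5.42 and 2.04 in mouse 1 and 7.92 and 6.12 in mouse 5, again with both mouse 5 values above both mouse 1 values. Syt4, a synaptotagmin of vesicle fusion, was 8.89 and 2.56 in mouse 1 and 5.89 and 3.28 in mouse 5, a difference of 4.47 ± 1.78 (adjusted p = 1.00). In the LY6D+ luminal libraries Syt4 was 9.70 in mouse 4 and 2.87 in mouse 5, so its level also moved between mice there. Necap1, Ube4b, Tnpo1, Ankrd13c and Igkv5-43 were the others of the 10 with the largest shared difference in this direction.

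Several genes with the smallest p of a pair stood high or low in 1 library. In mouse 5, Rtl8c, a retrotransposon-derived gene, was the only gene past the threshold: 9.80 in the LY6D+ library against 3.92 in the LY6D- library, a difference of 5.88 ± 0.44 (adjusted p = 0.036). The other 11 libraries lay between 3.32 and 4.26. The adjusted p was between 0.065 and 0.13 when any 1 of the luminal or basal libraries was left out. Hamp, the iron hormone hepcidin, was 2.65 in the LY6D+ library of mouse 5 and at least 8.44 in all others, a mouse 5 difference of -8.92 ± 0.85 (adjusted p = 0.057). Krt18 in mouse 5 differed by -5.15 ± 0.59 (adjusted p = 0.098), and the luminal transcription factor Foxa1 was 4.47 in LY6D+ and 8.33 in LY6D- cells of mouse 5, against 6.46 and 6.68 in mouse 1. Lrrn3, Trim12c and Cgnl1 were higher, and Rbis and Rps28 lower, in the LY6D+ library of mouse 5, with adjusted p-values between 0.057 and 0.10. After quantile normalization over arrays 17 genes passed in mouse 5, among them Rtl8c, Hamp, Krt18, Lrrn3, Trim12c, Cgnl1 and Rps28, so the count of calls in this pair depended on that choice.

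In mouse 1 the smallest adjusted p was 0.064, for Rps12-ps24, a ribosomal protein pseudogene, and Snora15, a small nucleolar RNA. Rps12-ps24 was 11.81 in LY6D+ cells of mouse 1 and 3.03, 2.66 and 2.47 in the other Sca1-high libraries. It was also high in both LY6D+ basal libraries, at 9.45 in mouse 3 and 8.002 in mouse 5, against 2.55 and 3.14 in the LY6D- basal libraries, and it lay between 2.95 and 4.32 in the luminal libraries. Snora74a and Snora16a, also small nucleolar RNAs, were 10.76 and 9.85 in the LY6D- library of mouse 1 and at most 3.82 and 4.12 in the other 3. These were high in 1 Sca1-high library of 4, and a pseudogene shares sequence with its parent gene, so its probe signal is uncertain. The chemokine gene Ccl11 was 9.03 and 5.08 in mouse 1 and 9.18 and 7.95 in mouse 5 (LY6D+ first), with a mouse 1 difference of 3.95 ± 0.54 (adjusted p = 0.21). Cd59a, a complement inhibitor of the LY6/uPAR fold, was 3.61 and 7.10 in mouse 1 and 3.16 and 3.77 in mouse 5.

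Genes of the LY6 and uPAR-domain family were mixed. Of 23 tested members, 10 (43.5%) were higher in LY6D+ cells of mouse 1 and 7 (30.4%) in mouse 5, with medians of -0.18 and -0.32. The shares over all genes were 42.6% and 49.9%, so the mouse 1 count was near that of all genes. Plaur, the urokinase receptor, was 9.42 and 7.98 in mouse 1 and 7.90 and 8.52 in mouse 5 (LY6D+ first). In the other gates Ly6d was 4.81 and 5.11 in luminal mouse 4, 5.20 and 4.61 in luminal mouse 5, 5.93 and 4.86 in basal mouse 3 and 5.96 and 6.03 in basal mouse 5, so that it followed the label in 1 mouse of each gate.

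Myeloid, ribosomal and respiratory genes gave low signals in the LY6D+ library of mouse 5. The mean log2 signal of the 22 myeloid genes was 5.91 and 5.57 in the LY6D+ and LY6D- libraries of mouse 1 and 4.62 and 5.33 in those of mouse 5. Lyz2, lysozyme of macrophages, was 8.07 and 8.60 in mouse 1 and 3.20 and 7.98 in mouse 5, and Tyrobp, an adaptor of myeloid receptors, was 9.65 and 7.78 in mouse 1 and 4.04 and 7.13 in mouse 5. Both were lowest in the LY6D+ library of mouse 5. The 38 cytosolic ribosomal protein genes had a mean signal of 6.97 in that library and 7.54 to 8.04 in the other 3, with medians of -0.04 in mouse 1 and -0.61 in mouse 5, and 13 were lower by at least 1 in mouse 5. The 36 nuclear-encoded respiratory chain genes had medians of 0.09 and -0.31, and 11 were lower by at least 1 in mouse 5, against 5.69% of all genes. The part of these differences in the endothelial and keratin results was not tested.

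Interferon genes also differed between the mice, and immediate early genes did so in their larger falls. Of 19 interferon response genes, 13 were higher in LY6D+ cells of mouse 5 and 7 of them by at least 1, against 0 by at least 1 in mouse 1, and all genes higher by at least 1 made up 4.43% in mouse 5 and 3.75% in mouse 1. Isg15, a ubiquitin-like interferon target, was 5.11 and 6.12 in mouse 1 and 6.17 and 4.33 in mouse 5 (LY6D+ first). Mx2, an antiviral GTPase, was 2.63 and 3.12 in mouse 1 and 4.48 and 2.56 in mouse 5. Of 22 immediate early and heat shock genes, 8 were lower by at least 1 in mouse 5 and 1 in mouse 1. Over all genes 5.69% and 4.06% were lower by at least 1 in these mice. The medians of this list leaned the same way, at -0.13 in mouse 1 and -0.22 in mouse 5. Of its members 8 were lower in both mice and 3 higher in both. Nr4a1, an immediate early nuclear receptor, was 9.64 and 9.01 in mouse 1 and 6.37 and 8.58 in mouse 5. Of 14 antigen presentation genes 3 were higher in LY6D+ cells of mouse 1 and 8 in mouse 5, with medians of -0.48 and 0.05. Among all genes tested 42.6% were higher in mouse 1 and 49.9% in mouse 5.

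Factors tied to progenitor state were split. Of 24 tested stem and progenitor genes 10 were higher in both pairs and 6 lower in both, against 20.2% and 27.6% of all genes, with medians of 0.05 and 0.11. None of the 10 was higher by at least 1 in either pair. Sox2, chosen from them after its values were seen, was 3.48 and 2.63 in mouse 1 and 3.78 and 3.54 in mouse 5 (LY6D+ first). Myc was 10.23 and 8.98 in mouse 1 and 8.15 and 10.52 in mouse 5 (LY6D+ first), and Itga2, an integrin of collagen binding, was 6.05 and 4.26 in mouse 1 and 6.55 and 8.91 in mouse 5. Both were among the 4 members higher with LY6D in mouse 1 and lower in mouse 5. Notch pathway genes (17 tested) had medians of -0.15 and -0.04, Wnt pathway genes (23 tested) -0.16 and 0.05, and cell cycle genes (25 tested) -0.08 and 0.02, all close to the median of all genes. Jag1, a Notch ligand, was 6.51 and 5.10 in mouse 1 and 4.49 and 5.81 in mouse 5. Rrm2, a subunit of ribonucleotide reductase, was 3.64 and 5.35 in mouse 1 and 7.51 and 5.81 in mouse 5.

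The luminal and basal gates allowed the LY6D difference to be compared across gates. No gene passed the test of the Sca1-high against the luminal LY6D difference (587 genes, 2.92%, at an unadjusted p under 0.05) or against the basal one (475 genes, 2.36%). Leaving out a library of any gate leaves 1 in its group, and no conclusion is drawn from the calls of such fits here either. The endothelial list had medians of -0.27 and 0.31 in the luminal pairs and of -1.23 and -1.65 in the basal pairs of mice 3 and 5. Emcn was 3.62 and 10.34 in the LY6D+ and LY6D- basal libraries of mouse 3 and 5.06 and 10.27 in those of mouse 5. Cdh5 was 4.26 and 9.78 in basal mouse 3 and 5.88 and 9.33 in basal mouse 5. In the basal gate both mice thus had lower endothelial signal in LY6D+ cells, as in Sca1-high mouse 1 and unlike Sca1-high mouse 5. The Emcn difference of the Sca1-high gate lay 5.61 ± 1.32 above the basal one (unadjusted p = 0.0020, adjusted p = 1.00). That value averages the Sca1-high pairs, in which Emcn had opposite signs.

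**Figure D5:**
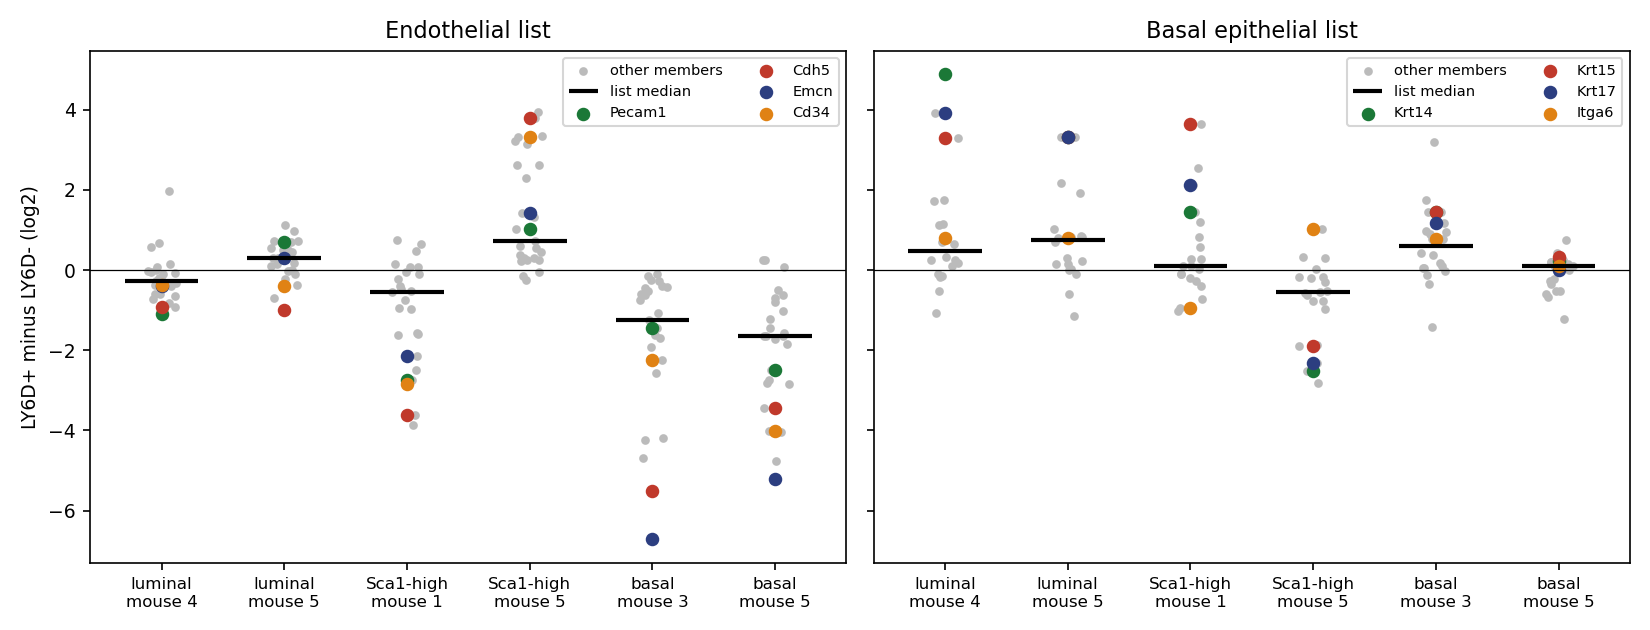
LY6D+ minus LY6D- difference (log2) of the tested endothelial genes (left) and basal epithelial genes (right) in the 6 mouse pairs of the series, with the list median as a bar and 4 genes in colour. The endothelial medians are -0.55 and 0.73 in the Sca1-high pairs and -1.23 and -1.65 in the basal pairs.

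The basal keratin genes Krt14, Krt15 and Krt17 were higher in LY6D+ luminal cells of both mice, and in the Sca1-high gate in mouse 1 alone. Krt14 was 9.87 and 4.98 in the LY6D+ and LY6D- luminal libraries of mouse 4 and 10.31 and 6.99 in those of mouse 5. Its Sca1-high difference minus the luminal one was -4.65 ± 1.27 (unadjusted p = 0.0051, adjusted p = 1.00). The Sca1-high term averages 1.44 in mouse 1 and -2.52 in mouse 5, so the value describes neither mouse. Krt15 was 9.18 and 5.89 in luminal mouse 4 and 9.72 and 6.41 in luminal mouse 5, and Krt17 was 10.48 and 6.56 in luminal mouse 4 and 11.18 and 7.86 in luminal mouse 5. Among genes other than predicted models, Xcl1 had the smallest p against the luminal gate and Snora33 against the basal gate. Both differed with LY6D in that other gate. Other genes with a small p differed in the Sca1-high gate instead. Serp1, for example, differed by -2.63 and -2.91 in Sca1-high mice 1 and 5, and by 0.26 in each basal pair. Xcl1, a chemokine of lymphocytes, was 4.38 and 10.69 in luminal mouse 4 and 4.39 and 8.75 in luminal mouse 5, and between 4.16 and 4.63 in the Sca1-high libraries. Snora33, a small nucleolar RNA, was 9.56 and 4.74 in basal mouse 3 and 8.47 and 5.21 in basal mouse 5, and between 5.09 and 5.80 in the Sca1-high libraries.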

How the data were processed

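Gene expression was measured on 12 arrays of 6 groups (3 gates, LY6D+ or LY6D-). The authors deposited a log2 signal for each probe set; RMA and oligo are named, without version or parameters, in the submitters' processing notes. They were used as deposited, without further normalization. Of 41345 probe sets, 23521 had a single gene symbol and covered 22180 genes (brightest probe set kept), and 20135 genes with at least 2 arrays above the lower quartile of the table (2.98) were tested. Entrez identifiers matched a mouse gene table for 23328 probe sets. Fits used limma 3.58.1 in R 4.3.3 (two-sided, Benjamini-Hochberg over all genes, threshold 0.05): a mean per group over 12 arrays, and a fit with the 4 Sca1-high arrays as their own coefficients. The fits were tested on simulated data. The mouse number in the labels pairs libraries of 1 animal. Deviations from the group means correlated at 0.149 between the LY6D+ and LY6D- Sca1-high libraries of mouse 1. Mouse was left out of the main fit and used as a block in an alternative. Libraries of a mouse are treated as independent, which they are not. Precision is limited by the number of arrays.

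The members and the 30 gene lists (628 genes, 566 tested) were chosen with earlier results of these data known. Genes named were drawn mainly from fixed sets, and not every gene of these sets is given. The sets were the sort genes and cell type markers, and the 5 with the smallest p each way per contrast. They also held the 10 most alike and most opposed between pairs each way, and up to 4 per list. Predicted gene models were passed over. Promoters came from a RefSeq table.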

Additional observations from a re-analysis of the deposited data

Results flagged for a closer look

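Probe sets without a single gene symbol, which the comparisons above do not use, were fitted apart by the same limma models, an analysis added after the data were seen. Of 13937 such probe sets tested, 2 passed an adjusted p of 0.05 between the LY6D+ and LY6D- groups, 9 in the mouse 1 pair and 27 in the mouse 5 pair. Of the 2, probe set 17203097 was 3.03 and 9.26 in the LY6D+ and LY6D- libraries of mouse 1 and 2.53 and 7.51 in those of mouse 5. Probe set 17538834 was 8.86 and 1.97 in mouse 1 and 8.71 and 1.54 in mouse 5. In the luminal and basal libraries 17203097 lay between 2.15 and 2.69, and 17538834 between 7.59 and 11.35. For both probe sets the LY6D- Sca1-high libraries thus stood apart from the rest of the series. Of the 9, 5 were higher in LY6D+ cells and 1 was in the annotation with several symbols. Of the 27, 14 were higher in LY6D+ cells. These 3 counts stand out because 0, 0 and 1 genes with a single symbol passed in the same comparisons. They include repeats, since probe sets 17205229 and 17209419, both among the 9, had identical values in every library. Many pair calls also rested on a single library. Probe set 17208223 was 11.55 in the LY6D- library of mouse 5 and 2.82, 2.81 and 2.88 in the other Sca1-high libraries.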

How the results depend on the processing

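Over the alternatives run for single genes, 6380 values kept their sign and their side of the threshold, 22 newly passed, 8 no longer passed and 12 changed sign. With mouse as a replicate block 0 genes passed (smallest adjusted p 0.0802), and the pairing changed no call in any comparison fitted with it. In the mouse 5 pair, 17 genes passed after quantile normalization over arrays, against 1 without it, Hamp (-9.11) and Krt18 (-5.14) among them. With only the mouse 5 pair, 1 gene passed. Leaving out 1 library at a time gave 0 to 17 genes for LY6D+ against LY6D-, 0 to 7 against the luminal and 0 to 14 against the basal difference, 0 to 4 in the mouse 1 pair, 0 to 1 in the mouse 5 pair and 0 to 1 in the difference between pairs (Ch25h, without either LY6D- basal library). Leaving out any library leaves 1 in its group, so these counts of genes passing cannot show that a result rested on that library. Genes at least 1 apart numbered 133 to 454 higher and 235 to 418 lower without 1 Sca1-high library, against 25 and 51 with all 4. A gap between groups is easier to meet with fewer libraries, so no conclusion is drawn from that rise. Leaving out 1 Sca1-high library, which sets libraries of different mice against each other, took the group difference from -2.25 to 0.16 for Ly6d, from -0.89 to 0.97 for Itga6, from -0.40 to 0.16 for Ptprc, from -2.01 to 0.30 for Pecam1, from -2.22 to 1.04 for Krt8, from -4.94 to 0.26 for Krt18 and from -0.40 to 6.34 for Cox20. Single values that changed sign without such a library were 0.154 and 0.155 (Ptprc, without the LY6D+ and the LY6D- library of mouse 1) and -0.0218 (Itga6, without the LY6D- library of mouse 5). With arrays centred on their medians, the difference between pairs became -0.0043 for Chgb and -0.0054 for Pcna. The mouse 1 difference of Krt18 became -1.81 with the mean of its probe sets. The cause was not tested. No detection call was used, so signal over background was not assessed, and 2 mice per group limit the precision.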
